A study of Mus musculus with 6 samples.

Results

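The antibody heavy-chain variable genes were followed in colon tumors of 6 mice by RNA-seq. They are the 113 of 54532 listed genes whose names begin with Ighv and whose annotated type is immunoglobulin V gene, not V pseudogene. Tumors were induced in C57BL/6N mice with azoxymethane (AOM), a carcinogen, and dextran sodium sulfate (DSS), which injures the colon lining, and tamoxifen (TAM) was given to both genotypes only after 3 rounds of DSS, when tumors had formed (AOM+DSS-L). The 3 Tmem173fl/fl mice (genotype WT in the labels) carried loxP-flanked Tmem173, the gene of the DNA-sensing adaptor STING, and the 3 Tmem173iΔmye mice (CRE in the labels) carried the same alleles with Lyz2-Creert2, a tamoxifen-activated Cre expressed in myeloid cells. The comparison asks how loss of myeloid STING in established tumors bears on their RNA. The age and sex of these mice are not given in the labels.

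A heavy-chain V segment encodes most of the variable domain of an antibody heavy chain. While a B cell develops, the recombinase made of Rag1 and Rag2 joins 1 V segment to a D and a J segment. The cell and its descendants then carry this V segment in their RNA, but unrelated cells can carry it too. Plasma cells of the gut mostly join this variable part to the constant region Igha and secrete IgA bound to the J chain, and they hold far more antibody RNA than a resting B cell does.

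Usage of a gene is its FPKM (reads scaled to gene length and library size) as a percentage of the summed FPKM of the 113 genes in the same tumor, so that genes of different length can be compared. Ighv1-81 had the highest mean usage, and its level and usage did not overlap between the groups. The germline letters below are the coding strand of the V exon, 300 bases each, from the GENCODE transcripts of GRCm38, and all of them lie on the minus strand of chromosome 12. Ighv1-81 (chr12:115920279-115920578) is shown first because of its mean usage. Ighv1-85 (chr12:116000028-116000327) is the gene most like it, and capitals there mark the 22 of 300 bases that differ from Ighv1-81. Ighv7-3 (chr12:114153180-114153479) and Ighv1-53 (chr12:115158403-115158702) led the other tumors, and Ighv3-6 (chr12:114288152-114288451) had the second highest mean usage. In these 4 genes other than Ighv1-85, capitals mark the run TGTGCAAGA, the codons at which the V segment meets D. It was searched for on the coding strand in the last few coding bases of each transcript and found there in 59 of 113 members. A run that starts before these bases was not counted.
Ighv1-81: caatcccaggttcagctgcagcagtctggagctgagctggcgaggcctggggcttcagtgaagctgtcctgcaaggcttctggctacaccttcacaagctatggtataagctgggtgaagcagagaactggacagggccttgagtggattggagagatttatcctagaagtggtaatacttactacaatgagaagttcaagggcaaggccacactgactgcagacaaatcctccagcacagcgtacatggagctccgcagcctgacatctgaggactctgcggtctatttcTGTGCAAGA
Ighv1-85: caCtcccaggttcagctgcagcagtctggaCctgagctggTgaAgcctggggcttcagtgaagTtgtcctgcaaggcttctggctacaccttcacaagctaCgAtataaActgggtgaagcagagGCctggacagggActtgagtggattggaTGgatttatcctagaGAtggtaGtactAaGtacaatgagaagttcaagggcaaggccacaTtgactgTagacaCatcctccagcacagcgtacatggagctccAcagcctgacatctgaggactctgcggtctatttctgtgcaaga
Ighv7-3: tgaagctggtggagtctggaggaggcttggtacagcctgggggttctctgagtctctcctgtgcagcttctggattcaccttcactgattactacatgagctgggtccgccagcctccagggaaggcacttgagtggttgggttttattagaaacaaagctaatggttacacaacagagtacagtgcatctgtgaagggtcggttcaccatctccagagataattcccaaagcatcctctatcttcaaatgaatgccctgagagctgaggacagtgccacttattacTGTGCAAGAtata
Ighv1-53: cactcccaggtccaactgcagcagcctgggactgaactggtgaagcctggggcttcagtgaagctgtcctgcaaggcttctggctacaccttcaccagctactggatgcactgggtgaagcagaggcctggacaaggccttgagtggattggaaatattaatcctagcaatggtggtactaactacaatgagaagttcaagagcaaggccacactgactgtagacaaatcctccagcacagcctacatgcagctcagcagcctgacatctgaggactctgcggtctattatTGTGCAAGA
Ighv3-6: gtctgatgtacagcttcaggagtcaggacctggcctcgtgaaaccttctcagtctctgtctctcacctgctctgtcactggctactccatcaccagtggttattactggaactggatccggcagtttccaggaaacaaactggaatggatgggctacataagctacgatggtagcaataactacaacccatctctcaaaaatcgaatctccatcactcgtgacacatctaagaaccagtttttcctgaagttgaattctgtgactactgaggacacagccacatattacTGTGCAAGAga

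Reads can be placed on single members only where sequences differ. Pairs of members of the same family (the number after Ighv) had a median identity of 84.6% over the coding part, and pairs of different families 61.0%. Ighv1-81 was 92.9% identical to Ighv1-85, 91.5% to Ighv1-77 and 90.9% to Ighv1-76, and no 100-base window of it occurred in another Ighv row. In all, 75 members shared no such window and 38 shared at least 1. Ighv1-62-2 and Ighv1-71, identical at 99.7% of bases, shared 90.3% and 96.9% of their windows, so counts of this pair are uncertain. Ighv1-5 overlaps the microRNA gene Mir7094-2 and Ighv1-62-1 overlaps Gm19331 on the opposite strand.

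The libraries held between 15329810 and 16533732 counts on genes. Colon epithelial genes marked every tumor, with 24041 to 36997 counts of Epcam, an epithelial adhesion protein. Tmem173 itself had 1748, 2911 and 1705 counts in Tmem173fl/fl replicates 1, 2 and 3 and 2291, 2245 and 1953 in Tmem173iΔmye replicates 1, 2 and 3, so RNA of whole tumors does not separate the genotypes. Reads of Y-linked genes numbered 2655 to 3547 in 3 tumors, namely Tmem173iΔmye replicates 1 and 2 and Tmem173fl/fl replicate 1, and did not pass 2 in the rest, so sex differed within both groups. Each library came from a different mouse, and the tests measure the spread between these tumors.

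Heavy-chain variable RNA was present in all tumors and varied most within the groups. The 113 genes received 1491, 333 and 430 counts in Tmem173fl/fl replicates 1, 2 and 3 and 3795, 856 and 1024 in Tmem173iΔmye replicates 1, 2 and 3. As CPM, counts scaled to library sizes normalized by TMM, these were 96.9, 22.2 and 25.8 against 239.6, 53.9 and 65.2. Tmem173iΔmye replicate 1 was the highest, but Tmem173fl/fl replicate 1 was above Tmem173iΔmye replicates 2 and 3, so the groups overlapped.

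**Figure D1:**
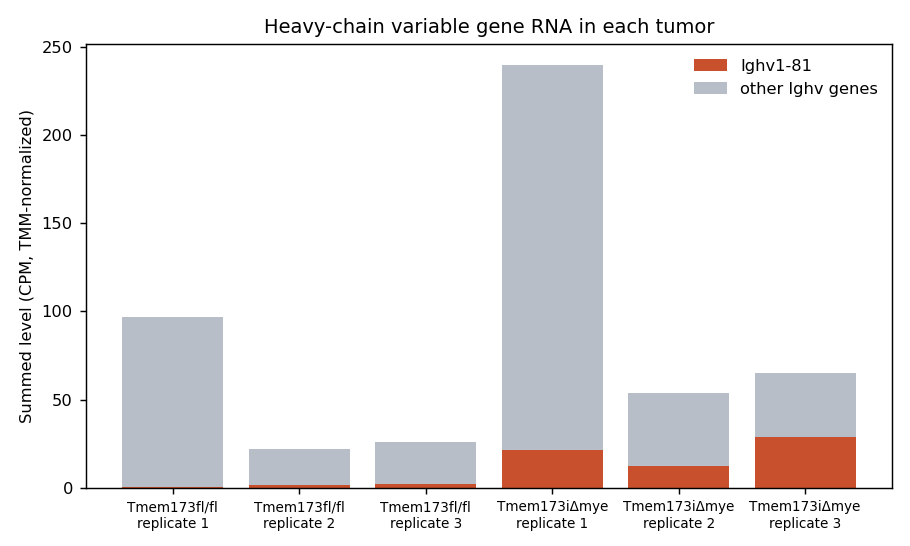
Bars give the summed CPM of the 113 Ighv genes in each of the 6 tumors, split into Ighv1-81 and the 112 other members. Totals run from 22.2 to 239.6 CPM, and the Ighv1-81 part is between 12.4 and 28.5 CPM in the Tmem173iΔmye tumors and at most 2.28 CPM in the Tmem173fl/fl tumors.

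The mean log2 CPM of the total was 5.25 ± 1.17 (SD, n = 3) in Tmem173fl/fl and 6.56 ± 1.17 (SD, n = 3) in Tmem173iΔmye tumors, a difference of 1.31 (2.48-fold, exact two-sided permutation p = 0.3). With 3 tumors against 3, this test cannot give a p below 0.1. Without Tmem173iΔmye replicate 1 the difference was 0.64, and without Tmem173fl/fl replicate 1 it was 1.98. In bulk tumor RNA, more cells and more RNA per cell cannot be told apart.

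Igha and Jchain RNA was also highest in Tmem173iΔmye replicate 1 and lowest in Tmem173fl/fl replicate 2. Igha, the IgA constant region, had 12391, 2596 and 6975 counts in Tmem173fl/fl and 27689, 10211 and 14803 in Tmem173iΔmye tumors (log2 fold change 1.25, SE 0.56, Benjamini-Hochberg adjusted p = 0.742 by the quasi-likelihood test of edgeR), and Tmem173fl/fl replicate 1 lay within the Tmem173iΔmye range. Jchain, which joins IgA into dimers, had 2893, 1047 and 1473 against 5988, 2155 and 3584 counts, again with overlap. Igha made up 76.9%, 79.6% and 95.3% of the summed FPKM of the 8 heavy-chain constant genes in Tmem173fl/fl and 94.9%, 85.3% and 94.1% in Tmem173iΔmye tumors. The summed FPKM of the V genes was between 42.9% and 94.1% of that of the constant genes.

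The B cell part differed from the antibody part between tumors. The 12 B cell markers, among them Ms4a1, summed to 74.8, 11.6 and 3.03 FPKM in Tmem173fl/fl and 5.17, 41.5 and 4.55 FPKM in Tmem173iΔmye tumors. Tmem173fl/fl replicate 1 and Tmem173iΔmye replicate 2 were thus rich in B cell RNA, whereas Tmem173iΔmye replicate 1, with the most V gene RNA, was among the lowest. All 12 markers were tested, 0 passed an adjusted p of 0.05 in edgeR (0 also at an unadjusted p of 0.05), and 12 of 12 had log2 fold changes below 0 with a median of -0.94. Igha and the B cell markers differed between tumors beside the V gene totals, and their part in the results below was not tested.

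Of the genes that recombine V segments, Rag1 and Rag2 had 0 counts in all tumors, where 3 counts per library is the most that a count of 0 allows. Of the 6 genes in this list 1 was high enough to be tested and did not pass. Of the 8 class switch and germinal centre genes 5 were tested and 0 passed, with 2 above and 3 below a log2 fold change of 0. Of the 12 plasma cell genes 11 were tested and 0 passed after adjustment in edgeR, 2 had an unadjusted p under 0.05, and 9 were above and 2 below 0 (median 0.32). The 8 constant genes gave 7 tested and 0 passing, 3 above and 4 below 0. Among markers of the other cells of the tumor, 8 of 8 epithelial, 5 of 5 T cell and 4 of 4 macrophage genes were tested and 0 passed after adjustment, with medians of 0.13, 0.70 and 0.12. For comparison, the median over all 16426 genes tested was -0.0042.

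Every tumor used many V genes. A count was found for 83, 61 and 59 members in Tmem173fl/fl and 85, 66 and 63 in Tmem173iΔmye tumors. The tumor with the most V gene counts in each group had the most members, but replicates 2 and 3 of both groups went against that order. Brought by calculation to the smallest total of 333 V gene counts, 64.7, 61.0 and 55.5 members were expected in Tmem173fl/fl and 60.1, 55.7 and 48.7 in Tmem173iΔmye tumors, with overlap between the groups (exact permutation p = 0.3). Over the 6 tumors, 33 members had a count in every tumor, 54 in 2 to 5, 10 in 1 and 16 in none. The 33 members found in every tumor held between 66.0% and 86.1% of usage. A count of 0 allows up to 3 counts, which is 0.0791% of V gene counts in the deepest tumor and 0.901% in the shallowest, for counting error only.

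Which gene led differed between tumors. The highest gene was Ighv7-3 in Tmem173fl/fl replicate 1 (usage 10.7%), Ighv1-53 in replicate 2 (9.01%) and Ighv1-81 in replicate 3 (9.20%). In the Tmem173iΔmye tumors Ighv1-81 led in all 3, with 9.33%, 23.8% and 44.7%. It was among the 3 highest genes in 5 of 6 tumors, and only in Tmem173fl/fl replicate 1 was it not.

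The second highest genes were Ighv1-53 (6.09%), Ighv3-6 (8.42%) and Ighv9-3 (6.78%) in the Tmem173fl/fl tumors and Ighv1-26 (6.84%), Ighv3-6 (11.8%) and Ighv1-53 (6.59%) in the Tmem173iΔmye tumors. Ighv1-81 exceeded the next gene by 1.36, 2.03 and 6.79 times in the Tmem173iΔmye tumors and by 1.36 times in Tmem173fl/fl replicate 3. In all, 3 members were ever the highest, 8 were ever among the 3 highest, and 9 passed 5% of usage in any tumor.

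**Figure D2:**
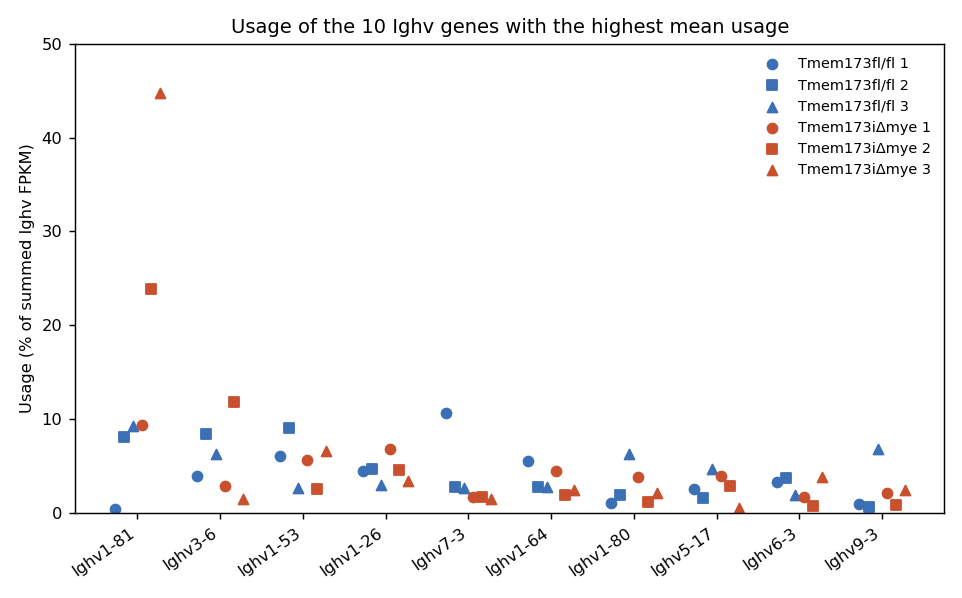
Points give the usage (percent of summed Ighv FPKM) of the 10 genes with the highest mean usage, 1 point per tumor, with colors for the groups and symbols for the replicates. Ighv1-81 reaches 23.8% and 44.7% in Tmem173iΔmye replicates 2 and 3, while the other 9 genes stay at or below 11.8% in all 6 tumors.

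The highest gene's share was 9.63% ± 0.913 (SD, n = 3) in Tmem173fl/fl and 26.0% ± 17.8 (SD, n = 3) in Tmem173iΔmye tumors, a difference of 16.3 points (exact permutation p = 0.2). Tmem173iΔmye replicate 1 lay among the Tmem173fl/fl tumors in this measure. Without Tmem173iΔmye replicate 3 the difference was 6.96 points. The 3 highest genes together held 22.3%, 25.5% and 22.3% against 21.8%, 40.2% and 55.2%.

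Ighv1-81 (ENSMUSG00000094689, chr12:115920279-115920712) stood out by its level as well as by its share. It had 5, 26 and 38 counts in Tmem173fl/fl and 337, 197 and 448 in Tmem173iΔmye tumors. As CPM these were 0.325, 1.73 and 2.28 against 21.3, 12.4 and 28.5, so the groups did not overlap and the lowest Tmem173iΔmye tumor was 5.44 times the highest Tmem173fl/fl tumor. The same order among tumors with Y-linked reads, and among those without, follows from this lack of overlap and says nothing further about sex.

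The log2 fold change of Ighv1-81 was 3.83 (SE 0.60, unadjusted p = 0.000254 and adjusted p = 0.742 over 16426 genes, edgeR). It did not pass the adjusted threshold in that fit. It passed in 2 other fits. DESeq2 on the same genes gave 3.83 with an adjusted p of 3.73e-08, and edgeR without the filter on low values gave 3.84 with an adjusted p of 0.014. Over the other alternatives the adjusted p was between 0.240 and 0.9997, and the log2 fold change stayed between 3.36 and 4.45.

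As a share, Ighv1-81 was closer between the groups. Its usage was 0.350%, 8.08% and 9.20% in Tmem173fl/fl and 9.33%, 23.8% and 44.7% in Tmem173iΔmye tumors, a difference of means of 20.1 points (exact permutation p = 0.1, the smallest possible). The groups did not overlap, but Tmem173fl/fl replicate 3 and Tmem173iΔmye replicate 1 were almost level. In shares of counts, these 2 tumors had 8.84% (Wilson 95% interval 6.51 to 11.9) and 8.88% (8.02 to 9.83). The share was 0.335% (0.143 to 0.783) in Tmem173fl/fl replicate 1 and 43.8% (40.7 to 46.8) in Tmem173iΔmye replicate 3, intervals that cover counting error only. Without Tmem173iΔmye replicate 3 the difference in usage was 10.7 points.

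By 1 measure of evenness the groups did not overlap, and this separation was gone when Ighv1-81 was left out. Pielou evenness, which is 1 when all detected genes are used equally, was 0.866, 0.863 and 0.877 in Tmem173fl/fl and 0.853, 0.788 and 0.644 in Tmem173iΔmye tumors. The groups did not overlap, with means of 0.868 ± 0.0076 and 0.762 ± 0.107 (SD, n = 3 each, difference -0.107, exact permutation p = 0.1). Other settings did not keep this separation. Over members with at least 10 counts in all the difference was -0.106 (exact permutation p = 0.2). The Gini coefficient over all members, which is higher when usage is less even, was 0.688, 0.765 and 0.761 in Tmem173fl/fl and 0.701, 0.785 and 0.851 in Tmem173iΔmye tumors, so the groups overlapped (exact permutation p = 0.4). With Ighv1-81 left out, a choice made after its values were seen, evenness was 0.866, 0.868 and 0.887 against 0.866, 0.866 and 0.869. The groups then overlapped and the difference was -0.0064 (exact permutation p = 0.7).

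**Figure D3:**
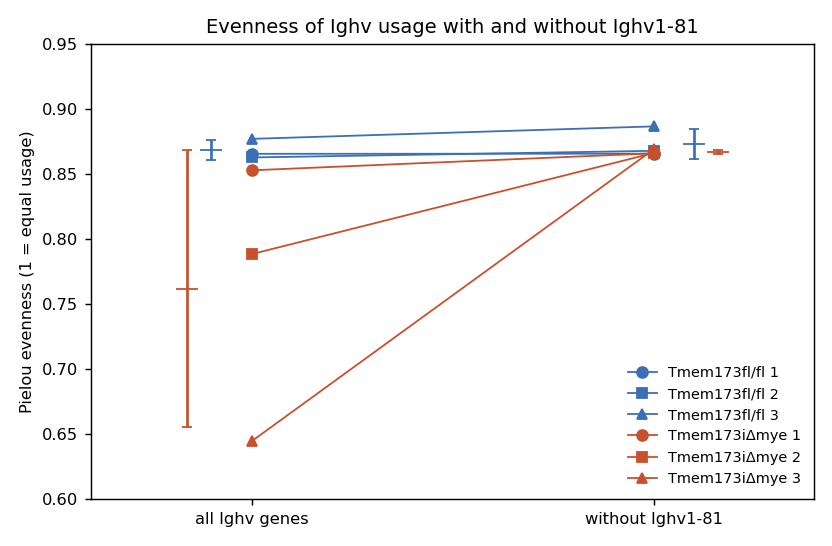
Pielou evenness of usage in each tumor over all 113 Ighv genes (left) and over the 112 without Ighv1-81 (right), with a line for each tumor and bars for the mean ± SD of each group (n = 3). The Tmem173iΔmye tumors lie between 0.644 and 0.853 on the left and between 0.866 and 0.869 on the right. The axis starts at 0.6.

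The effective number of genes, the exponential of the Shannon entropy, says how many equally used genes would give the same diversity. It was 45.8, 34.7 and 35.7 in Tmem173fl/fl and 44.2, 27.2 and 14.4 in Tmem173iΔmye tumors, a difference of -10.1 genes with overlap between the groups (exact permutation p = 0.4). Without Tmem173iΔmye replicate 3 the difference was -3.05. Without Ighv1-81 the tumors had 45.4, 34.9 and 36.6 against 46.4, 37.2 and 36.1 effective genes (difference 0.92, exact permutation p = 0.6). The inverse Simpson index, which weights the common genes more, was 30.1, 23.6 and 26.1 against 30.4, 12.05 and 4.70.

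The number of genes needed to reach 50% of usage follows the order of the effective number. It was 13, 8 and 10 in Tmem173fl/fl and 12, 7 and 2 in Tmem173iΔmye tumors. Tmem173iΔmye replicate 1 was nearly as broad as Tmem173fl/fl replicate 1, and both are the deepest of their group.

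**Figure D4:**
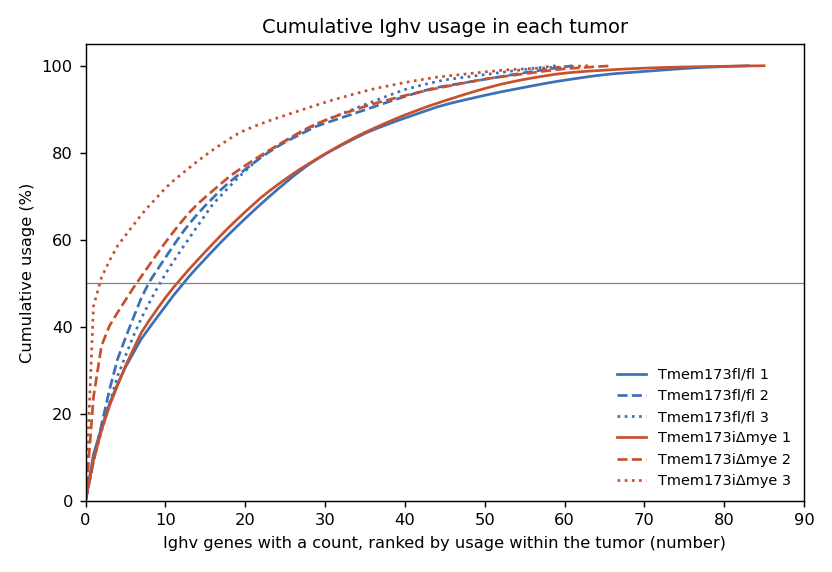
Curves give cumulative usage (percent) against the number of Ighv genes with a count, ranked by usage within each of the 6 tumors, with a grey line at 50%. The curve of Tmem173iΔmye replicate 3 crosses it at 2 genes, that of Tmem173iΔmye replicate 2 at 7, and the other 4 at 8 to 13.

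The other leading genes did not separate the groups by level. Ighv3-6 had 56, 27 and 26 counts in Tmem173fl/fl and 101, 97 and 15 in Tmem173iΔmye tumors (log2 fold change 0.94, SE 0.67). Ighv1-53 had 87, 29 and 11 against 203, 21 and 66 counts (1.15, SE 0.92). Ighv1-26 had 64, 15 and 12 against 247, 38 and 34 counts (1.78, SE 0.94). For each of the 3 genes the groups overlapped and the adjusted p from edgeR was at least 0.742.

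Ighv7-3, the leader of Tmem173fl/fl replicate 1, had 157, 9 and 11 against 62, 14 and 15 counts (log2 fold change -0.99, SE 1.12). Its direction rested on that 1 tumor, since without Tmem173fl/fl replicate 1 the value was 1.59. Its usage of 10.7%, 2.72% and 2.59% against 1.67%, 1.65% and 1.46% did not overlap. The remaining 5 of the 10 most used genes, Ighv1-64, Ighv1-80, Ighv5-17, Ighv6-3 and Ighv9-3, had mean usage between 2.28% and 3.29% and log2 fold changes between 0.64 and 1.85, with overlap between the groups in each. Without Tmem173iΔmye replicate 1, Ighv1-64, Ighv1-80, Ighv5-17 and Ighv6-3 turned to values between -0.75 and -0.03.

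A total of 64 members reached a mean of 0.5 FPKM and were tested together with all other genes that did, and these 64 held 97.2% of all 7929 V gene counts. The other 49 were not tested, of which 33 had a count and none more than 17 in all. By edgeR, 0 of the 64 had an adjusted p under 0.05 (background 0% of 16426 genes), 6 had an unadjusted p under 0.05 (background 6.14%), DESeq2 called 1 (Ighv1-81, among 27 genes in all) and limma called 0.

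Members were mostly above a log2 fold change of 0, 53 of 64 or 82.8%, against 49.4% of all genes tested, with a median of 1.34. The filter took the mean over all tumors, so a member high in 1 tumor could pass it. Without the filter, 68 of 97 members and 14729 of 30939 genes were above 0, and the median of the members was 1.17. The direction among the 64 rested on 1 tumor. Without Tmem173iΔmye replicate 1, 25 of 64 were above 0 and the median was -0.26, and without Tmem173fl/fl replicate 1, 62 of 64 were above 0 and the median was 2.28. Members whose CPM did not overlap between groups numbered 3 higher (4.69%, background 6.03%) and 0 lower (background 6.47%), a share no larger than the background. These 3 were Ighv1-81, Ighv1-12 and Ighv5-9-1.

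The study used DESeq2 with limits of a log2 fold change of 1 or more in either direction and an unadjusted p of at most 0.05. By edgeR at these limits 6 members were called, 5 higher (background 1.26%) and 1 lower (background 0.864%), against 2.12% of all genes. At the same limits DESeq2 called 8 members, 7 higher and 1 lower, with 212 higher and 126 lower among all 16426 genes. Leaving out 1 tumor moved the edgeR count to 16 (without Tmem173fl/fl replicate 1), 4 (without Tmem173fl/fl replicate 2), 3 (without Tmem173fl/fl replicate 3), 11 (without Tmem173iΔmye replicate 2) and 12 (without Tmem173iΔmye replicate 3). Without Tmem173iΔmye replicate 1 it was 6, with 3 in each direction.

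Beside Ighv1-81, the 4 called higher by edgeR were genes of low level. Ighv1-12 had 8, 1 and 3 counts in Tmem173fl/fl and 45, 10 and 22 in Tmem173iΔmye tumors (log2 fold change 2.63, SE 0.80). Its groups did not overlap in CPM or in usage, which was 0.509%, 0.283% and 0.660% against 1.13%, 1.10% and 1.998%. Ighv2-9-1 had 6, 3 and 0 against 42, 4 and 25 counts (2.90, SE 1.06), with overlap in CPM.

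Ighv5-9-1 (2, 0 and 0 against 3, 15 and 4 counts) and Ighv5-9 (2, 2 and 2 against 30, 11 and 1 counts) did not exceed 3 counts in any Tmem173fl/fl tumor and are given without a fold change. The member called lower by edgeR was Ighv14-4, with 32, 0 and 17 counts in Tmem173fl/fl and 3, 0 and 1 in Tmem173iΔmye tumors, the latter at or under 3 counts. Each of the 5 called genes other than Ighv1-81 had an adjusted p of 0.742 from edgeR. The next lower genes by p were Ighv1-37 (20, 0 and 3 against 5, 0 and 0 counts), Ighv1-69 (35, 2 and 4 against 13, 2 and 0 counts) and Ighv2-6 (25, 0 and 2 against 4, 5 and 3 counts). In all 3 the groups overlapped and Tmem173fl/fl replicate 1 was the highest.

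In usage, 2 of the 113 members were higher in every Tmem173iΔmye tumor than in any Tmem173fl/fl tumor and 7 were lower. Usage is a share within the V genes, so no such number over all genes can be set beside it. In CPM, 4.69% of the 64 tested members did not overlap in either direction, with 0 lower, against 12.5% of all tested genes. The members higher in usage were Ighv1-81 and Ighv1-12. The lower ones were Ighv7-3, Ighv6-6, Ighv1-69, Ighv1-5, Ighv3-5, Ighv13-2 and Ighv6-4, of which Ighv6-6 held the most after Ighv7-3, with 3.23%, 2.75% and 3.57% against 0.980%, 0.119% and 0%. Ighv3-5, Ighv13-2 and Ighv6-4 had at most 5 counts in any tumor. When usage was computed without Ighv1-81, the same 7 were lower, and Ighv1-26, Ighv1-72 and Ighv1-12 were higher.

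By family, the large Ighv1 family (53 members, among them Ighv1-81) held most of the usage in every tumor. Its share was 54.0%, 54.3% and 50.8% in Tmem173fl/fl and 64.3%, 58.1% and 79.8% in Tmem173iΔmye tumors. The groups did not overlap, with a difference of 14.3 points (exact permutation p = 0.1, adjusted p = 0.533 over 16 families). Without Ighv1-81 the shares were 53.9%, 50.3% and 45.9% against 60.6%, 45.0% and 63.4%, which overlapped (exact permutation p = 0.4).

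The Ighv6 family (5 members) went the other way, with 6.68%, 6.73% and 6.19% against 2.70%, 0.835% and 3.84% (difference -4.08 points, exact permutation p = 0.1, adjusted p = 0.533). With Ighv1-81 left out its shares were 6.70%, 7.33% and 6.82% against 2.98%, 1.10% and 6.95%, so Tmem173iΔmye replicate 3 then lay within the Tmem173fl/fl range. The single gene of the Ighv13 family, Ighv13-2, was also lower without overlap at 0.205%, 0.304% and 0.237% against 0.108%, 0.118% and 0%, but on 10 counts in all. These were 3 of 16 families without overlap, each with an adjusted p of 0.533 by the exact permutation test. This number was 1 without Ighv1-81, 6 without Tmem173fl/fl replicate 2 and 5 without Tmem173iΔmye replicate 1. With 1 tumor left out, groups fail to overlap more easily, so the 6 and the 5 cannot be set beside the 3. Family shares depend on each other and have no like number over all genes. By CPM, 12.5% of single genes tested did not overlap. The other 13 families overlapped, and Ighv16 had no count.

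**Figure D5:**
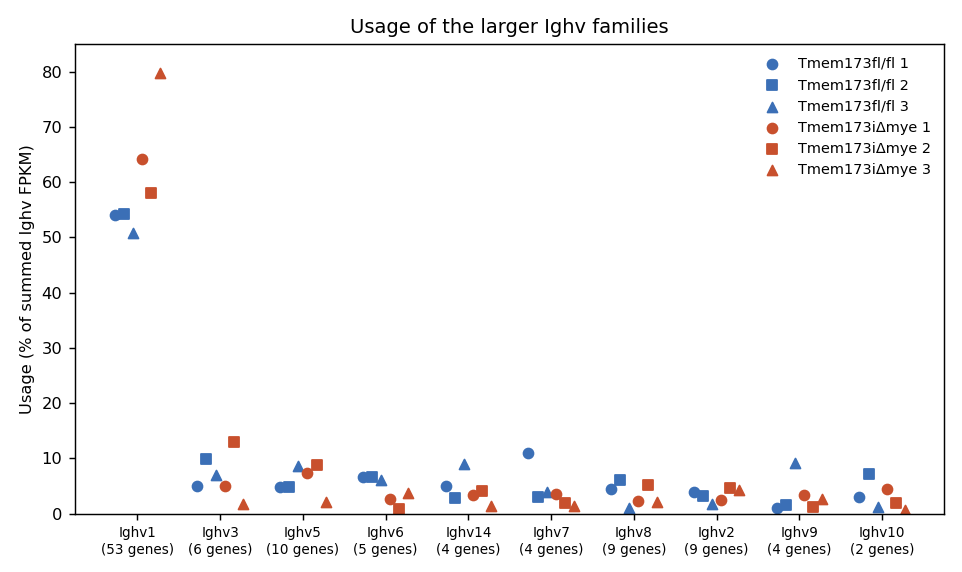
Points give the usage (percent of summed Ighv FPKM) of the 10 families with a mean usage of at least 2%, 1 point per tumor, with the number of member genes under each name. Ighv1 lies between 50.8% and 54.3% in the Tmem173fl/fl and between 58.1% and 79.8% in the Tmem173iΔmye tumors, and every other family is at or below 13.0%.

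By position in the locus, the differences between the groups were smaller when Ighv1-81 was left out, a choice made after its values were seen. The members span chr12:113578504-116000461, and they were ordered by distance from the D and J segments. The 37 most distant members, among them Ighv1-81, held 35.8%, 45.9% and 32.1% of usage in Tmem173fl/fl and 44.4%, 46.3% and 69.5% in Tmem173iΔmye tumors, with overlap (difference 15.5 points, exact permutation p = 0.2). Without Tmem173iΔmye replicate 3 the difference was 7.41 points, and without Ighv1-81 it was 3.67 points (exact permutation p = 0.6). The 38 members in the middle held 37.2%, 37.2% and 35.5% against 34.97%, 32.1% and 18.7%, without overlap (exact permutation p = 0.1), and with Ighv1-81 left out the groups overlapped (exact permutation p = 0.8). The 38 nearest members overlapped in both cases.

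Tumors of the same genotype were hardly more alike in usage than tumors of different genotype. The Bray-Curtis dissimilarity, which is 0 for equal usage and 1 for no shared gene, was on average 0.465 over the 9 pairs of different genotype (0.371 to 0.567), 0.452 within Tmem173fl/fl (0.416 to 0.476) and 0.431 within Tmem173iΔmye tumors (0.409 to 0.472). Between minus within was 0.0232 (exact permutation over 10 splits, p = 0.3). Without Ighv1-81 it was -0.0026 (exact permutation p = 0.7), and without Tmem173iΔmye replicate 3 it was -0.0226. The most alike pair over all members was Tmem173fl/fl replicate 1 and Tmem173iΔmye replicate 1 (0.371), which share neither genotype nor leading gene. These were also the tumors with the most V gene counts (1491 and 3795), and both had Y-linked reads. Dissimilarity was not brought to equal depth, and the part of depth in it was not tested.

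The kappa light-chain V genes (Igkv, 100 genes), which pair with the heavy chains in the same cells, were similarly uneven. Their Pielou evenness was 0.870, 0.810 and 0.831 in Tmem173fl/fl and 0.848, 0.838 and 0.651 in Tmem173iΔmye tumors, and Tmem173iΔmye replicate 3 was the lowest for both chains. Heavy minus kappa evenness was on average 0.0072 ± 0.0375 (SD, n = 6, above 0 in 3 of 6 tumors, exact sign-flip p = 0.781). The highest kappa gene was Igkv1-110 or Igkv1-117 in every tumor, at 7.83%, 19.4% and 14.1% against 9.40%, 15.3% and 34.96%. The low evenness of Tmem173iΔmye replicate 3 was thus measured for both chains.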

How the data were processed

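Total RNA of the tumors was extracted with TRIzol and polyA libraries were made with a NEBNext Ultra kit. The authors deposited 1 table with raw read counts per gene and FPKM for each of the 6 tumors. Per the submitters' processing notes, CASAVA 1.8, fastp, HISAT2 2.0.5, featureCounts 1.5.0-p3 and DESeq2 1.20.0 were used with GRCm38. Strand and multi-mapping settings are not given in the sources used here, and reads of near-identical V genes may have been lost or shared. The deposited FPKM equal the counts divided by gene length and by a constant for each tumor. Columns with the authors' own group means, fold changes and p-values were not used.

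Counts were tested for the 16426 genes whose mean reached 0.5 FPKM, with edgeR 4.0.16 (R 4.3.3, quasi-likelihood F test, TMM, group as the only term, Benjamini-Hochberg). The SE of a log2 fold change was derived from its F statistic. Single values per tumor were compared with exact two-sided permutation tests. DESeq2 1.42.0, limma 3.58.1 on log2(FPKM + 1) and log2(FPKM + 0.1), other filters and scalings, sex as a covariate and leaving out each tumor were alternatives. The fit was tested on simulated data with 200 changed genes. Named are the 10 members with the highest mean usage, the 3 highest of each tumor, and the 5 with the lowest p in each direction. Further members were named after their values were seen, where a count singled them out. The members, the lists of other genes and these tests were chosen with earlier results of these data known. Sequences are from GENCODE M21.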

Additional observations from a re-analysis of the deposited data

How the results depend on the processing

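Evenness, dominance, the distal share and the total level kept their direction under all alternatives run, and none of their exact permutation tests could go below p = 0.1. The lowest and highest values with 1 tumor left out were -0.152 and -0.0478 for evenness, -17.9 and -3.05 for the effective number, 6.96 and 24.7 points for the share of the highest gene, 7.41 and 19.97 points for the distal share, 0.64 and 1.98 for log2 total CPM, -0.0226 and 0.0633 for dissimilarity, -0.0019 and 0.0185 for heavy minus kappa evenness, 3 and 16 for members past the limits, and 3 and 6 for families without overlap. With 1 tumor left out, families fail to overlap more easily, so their range is not comparable with the number over all tumors. Heavy minus kappa evenness also turned to -0.0325 when the effective number was divided by the genes listed, and to -0.0019 and -0.0005 without Tmem173fl/fl replicates 2 and 3. Without Ighv1-81, an alternative chosen after seeing the data, the effective number turned to 0.92 and dissimilarity to -0.0026, and 1 family did not overlap. Members past the limits numbered 8 with DESeq2, 21 without a filter (97 members tested) and 1 with edgeR's filterByExpr (26 members tested). They numbered 3 with limma on log2(FPKM + 1) and 15 with the replicate block. Those with an adjusted p under 0.05 numbered 1 without a filter and 1 with DESeq2. The cause of these differences was not tested. Without Tmem173fl/fl replicate 1, Ighv7-3 (1.59), Ighv1-37 (0.16), Ighv1-69 (0.72) and Ighv2-6 (1.89) reversed, and without Tmem173iΔmye replicate 1, Ighv1-64 (-0.75), Ighv1-80 (-0.053), Ighv5-17 (-0.49), Ighv6-3 (-0.034) and the median of the members (-0.26) did. At the other end of the leave-one-out range were -2.05 for Ighv7-3, -5.98 for Ighv1-37, -3.64 for Ighv1-69, -1.74 for Ighv2-6, 2.75 for Ighv1-64, 2.36 for Ighv1-80, 2.23 for Ighv5-17, 1.83 for Ighv6-3 and 2.28 for the median. With limma on log2(FPKM + 0.1), Ighv2-6 was 0.45. The labels give replicate numbers but no pairing between the 2 groups. Deviations of same-numbered tumors correlated across genes at 0.31, 0.0085 and 0.15, and those of differently numbered tumors at -0.37 to 0.22. These ranges overlap and do not settle whether the tumors were paired. With the replicate block, Ighv1-81 had a log2 fold change of 3.92 (adjusted p = 0.240, edgeR), and families without overlap in paired differences numbered 4. With 333 to 3795 V gene counts per tumor, members with a few counts cannot be compared.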

Other observations

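Several V genes were prominent in a single tumor. Chosen after their values were seen, Ighv1-50 had 188 counts in Tmem173iΔmye replicate 1 (usage 4.68%) and 5, 1, 6, 4 and 0 counts in Tmem173fl/fl replicates 1, 2 and 3 and Tmem173iΔmye replicates 2 and 3. Ighv10-3 had a usage of 6.95% in Tmem173fl/fl replicate 2 and at most 2.63% elsewhere, and Ighv9-3 of 6.78% in Tmem173fl/fl replicate 3 and at most 2.40% elsewhere. Ighv1-74 had 22, 16 and 0 counts in Tmem173fl/fl and 28, 2 and 1 in Tmem173iΔmye tumors, with usage up to 4.97% in Tmem173fl/fl replicate 2.

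The 70 Ighv pseudogene rows had 1, 0 and 0 counts in Tmem173fl/fl and 1, 4 and 1 in Tmem173iΔmye tumors, and the Ighj rows had 24, 7 and 1 against 19, 12 and 7.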
